A study of Homo sapiens with 8 samples.

Results

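The EZH2 islands shared by HT and SUDHL6, lines of diffuse large B cell lymphoma, were 289 islands of the HT list, out of 2508 on chromosomes 1 to 22, or 11.5%. An island is a stretch of the genome in which ChIP-seq reads of 1 library were enriched. An HT island was taken as shared when it overlapped a SUDHL6 EZH2 island by at least 1 bp. Counted from the other side, 292 of 1500 SUDHL6 EZH2 islands, or 19.5%, overlapped HT EZH2. Shared islands were thus selected on the positions of EZH2 islands in both lists, so their EZH2 positions, widths and scores are described here without a test. H3K27me3 and H3K4me3 came from other libraries and took no part in the choice.

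Both are established cell lines, sampled without treatment, and the labels give no genotype for either. Each line had 1 library for EZH2, 1 for H3K27me3 and 1 for H3K4me3, with 1 deposited list of islands for each. With a single library per line and antibody, neither the lines nor classes of islands could be tested against each other. The 95% intervals of shares (exact, Clopper-Pearson) cover counting error only. Sequencing depth is unknown. An island that is missing from a list is thus not absence of the mark. The lists held 2508 EZH2, 16851 H3K27me3 and 10593 H3K4me3 islands in HT, and 1500, 13117 and 13281 in SUDHL6, on the autosomes. The 2 input samples were not used here.

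EZH2 carries the methyltransferase activity of Polycomb repressive complex 2 (PRC2), which writes H3K27me3, trimethylated lysine 27 of histone H3. H3K27me3 marks genes that are kept silent, and other subunits of PRC2 bind the mark, by which the complex can copy it along chromatin. H3K4me3 marks the promoters of active genes. Where it lies together with H3K27me3 the promoter is called bivalent, a state common at developmental genes. In germinal centre B cells, from which this type of lymphoma can arise, EZH2 is high and silences genes of cell cycle arrest and of plasma cell differentiation.

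Most shared islands lay in H3K27me3 chromatin, and mostly in that of both lines. H3K27me3 of HT was met by 249 of the 289 islands (86.2%, 95% interval 81.6 to 89.9%), against 48.8% of all HT EZH2 islands. H3K27me3 of SUDHL6 was met by 204 (70.6%, 65.0 to 75.8%), against 20.2% of all HT EZH2 islands. By the rule every shared island had SUDHL6 EZH2, which most HT islands lacked. Among all SUDHL6 EZH2 islands, 65.53% met H3K27me3 of SUDHL6, so the difference from these was small. The mark was present in both lines at 187 shared islands (64.7%), against 17.8% of the whole HT list and 35.93% of all SUDHL6 EZH2 islands. It was present in HT alone at 62 (21.5%, 16.9 to 26.6%), against 31% of the whole HT list, and in SUDHL6 alone at 17 (5.88%), against 2.39%. At 23 shared islands (7.96%, 5.11 to 11.7%) it was found in neither line, against 48.8% of the whole HT list and 25.93% of all SUDHL6 EZH2 islands. With at least 50% of an island overlapped, for EZH2 and the marks alike, 14.7% of 238 shared islands had it in neither line, and with 1500 EZH2 islands in each list 5% did.

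The difference from EZH2 islands found in 1 line was larger on the HT side. H3K27me3 in both lines was met by 64.7% of shared islands, 11.7% (10.4 to 13.1%) of the 2219 islands of HT alone and 28.7% (26.2 to 31.4%) of the 1208 islands of SUDHL6 alone. H3K27me3 of HT itself lay at 86.2% of shared islands and 43.9% (41.9 to 46.0%) of those of HT alone. The corresponding shares for H3K27me3 of SUDHL6 were 71.2% (65.7 to 76.4%) of the 292 shared islands as called in SUDHL6 and 64.2% (61.4 to 66.9%) of those of SUDHL6 alone, and these intervals overlap.

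**Figure D1:**
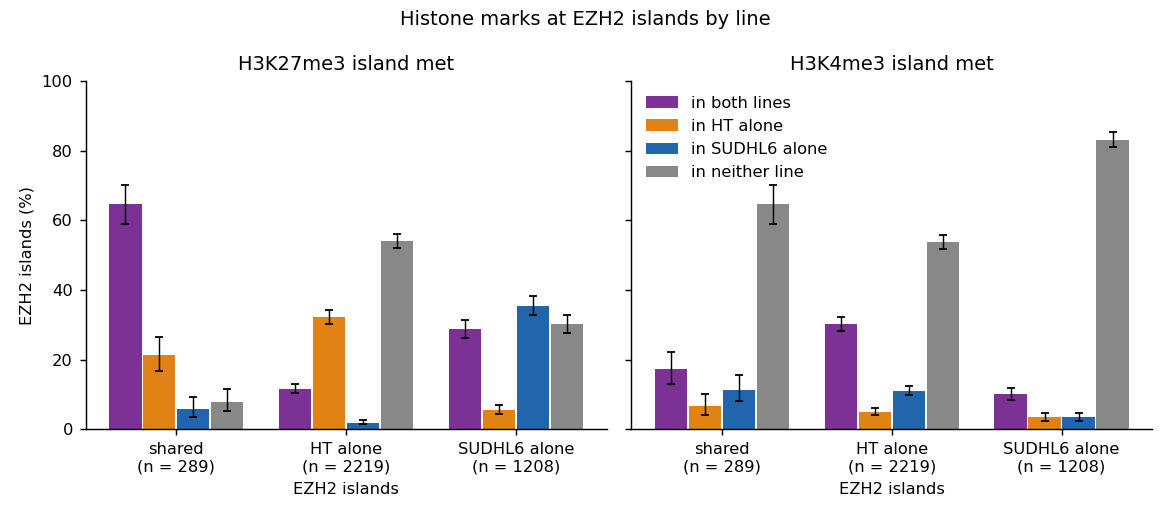
Share of EZH2 islands (vertical axis, %) that met an H3K27me3 island (left) or an H3K4me3 island (right) in both lines, in HT alone, in SUDHL6 alone or in neither, for shared islands, islands of HT alone and islands of SUDHL6 alone. Bars are shares with exact 95% intervals for counting error. H3K27me3 in both lines is the tallest bar among shared islands, at 64.7%, and no mark of this kind in either line is the tallest among islands of HT alone, at 54.1%.

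Shared islands were wider than the rest of the HT list, with a median of 4650 bp, against 3600 bp in islands of HT alone. The H3K27me3 difference from islands of HT alone was present in each class of width. Among islands under 2 kb, the mark lay in both lines at 7 of 16 shared islands (43.8%, 19.8 to 70.1%) and at 18 of 224 islands of HT alone (8.04%, 4.83 to 12.4%). From 2 to 4 kb it did so at 55 of 95 shared islands (57.9%, 47.3 to 68.0%) and 109 of 1094 of HT alone (9.96%, 8.25 to 11.9%). From 4 to 8 kb the shares were 70.8% (62.7 to 78.1%) of 144 shared islands and 15.1% (12.7 to 17.8%) of 774 of HT alone. At 8 kb or wider they were 67.6% (49.5 to 82.6%) of 34 shared islands and 11.8% (6.76 to 18.7%) of 127 of HT alone. In islands of SUDHL6 alone the share was higher in wider islands, with 12.7% under 2 kb and 46.6% (40.0 to 53.2%) at 8 kb or wider. The intervals of the shared islands and of those of SUDHL6 alone overlapped in the narrowest and the widest class. Shared islands were classed by width in HT and those of SUDHL6 alone by width in SUDHL6.

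**Figure D2:**
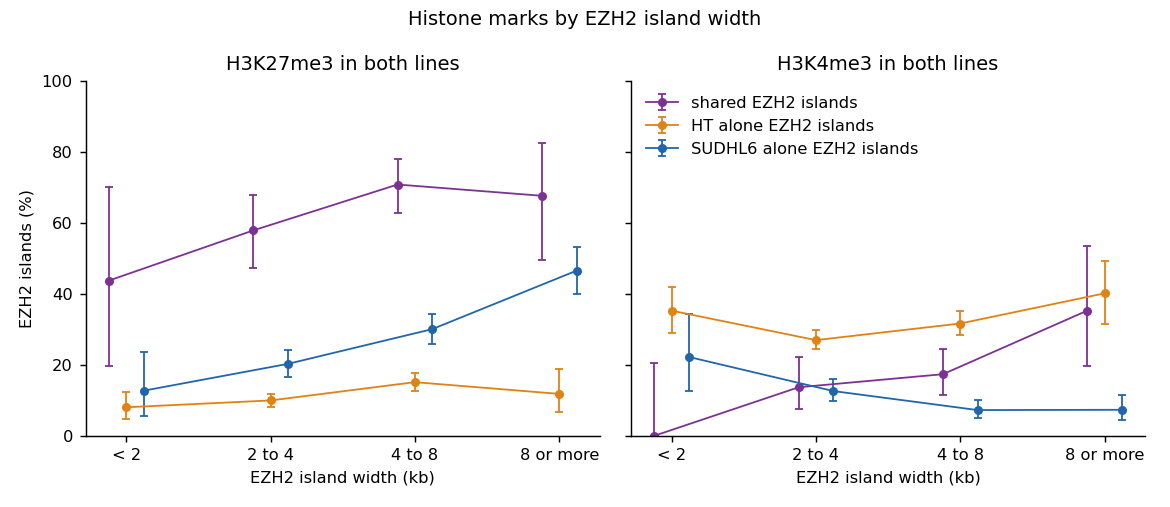
Share of EZH2 islands (vertical axis, %) with H3K27me3 in both lines (left) or H3K4me3 in both lines (right), by width of the EZH2 island (horizontal axis, kb). Points are shares with exact 95% intervals for counting error. For H3K27me3 the shared islands lie above both other groups in every class, between 43.8% and 70.8%, and for H3K4me3 they start at 0 of 16 islands under 2 kb and reach 35.3% at 8 kb or wider.

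The same difference was present at each level of EZH2 score. The score is the authors' own value for an island, used here only to rank islands within their list, as a percentile in which 100 is the highest. In the lowest 25% of the HT list by score, H3K27me3 lay in both lines at 10 of 24 shared islands (41.7%, 22.1 to 63.4%) and at 31 of 576 islands of HT alone (5.38%, 3.69 to 7.55%). In the highest 25% the shares were 113 of 152 (74.3%, 66.6 to 81.1%) and 95 of 472 (20.1%, 16.6 to 24.0%). From the lowest to the highest 25% by HT score, 20.8%, 23.1%, 4.05% and 3.95% of shared islands had H3K27me3 in neither line. In islands of HT alone this share was lower at higher scores as well, with 68.9%, 62.3%, 45.45% and 35.8%.

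The H3K27me3 islands met by shared EZH2 islands in HT were among the strongest of their own list. Their median score percentile in the HT H3K27me3 list was 94.6 (middle 50% of values 84.4 to 97.8), against 84.9 (67.0 to 94.1) for those met by EZH2 of HT alone. By score per kb, which removes the part of the width in the score, the medians were 92.8 and 85.2. In SUDHL6 the direction was the reverse, with lower medians at shared islands. The H3K27me3 islands met by the 292 shared islands had a median percentile of 79.2, and those met by EZH2 of SUDHL6 alone 82.3. By score per kb the medians were 59.6 and 67.5. The H3K27me3 islands of HT had a median width of 5700 bp at shared islands and 3900 bp at islands of HT alone. In SUDHL6 the H3K27me3 widths were 5100 bp at shared islands and 5550 bp at islands of SUDHL6 alone.

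H3K27me3 covered most of a shared island in HT and somewhat less of it in SUDHL6. Where the mark was met, it covered a median of 88.9% of the HT EZH2 island in HT and 75% in SUDHL6. Of the shared islands as called in SUDHL6, it covered a median of 81.5% in HT and 73.3% in SUDHL6. An EZH2 island lay wholly inside a single H3K27me3 island at 90 of 249 islands (36.1%) in HT and at 48 of 204 (23.5%) in SUDHL6. At all 187 shared islands with the mark in both lines, some of the same bases were marked in HT and SUDHL6. With so much of an island covered in each line, a common base can follow from the coverage alone. Islands of HT alone were not counted for common bases or for lying wholly inside an H3K27me3 island. These counts thus describe shared islands and do not set them apart. Where HT H3K27me3 was not met, the nearest island of it was a median of 56.3 kb away, and for SUDHL6 82.7 kb. In islands of HT alone these distances were longer, at 87.2 kb and 131.4 kb. Counted from SUDHL6 the direction was the reverse. The distances were then 55.95 kb and 90.45 kb at shared islands, and 29.25 kb and 37.8 kb at islands of SUDHL6 alone.

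The bases bound in both lines carried more H3K27me3 than the margins bound in 1 line. EZH2 of both lines covered 1131 kb, of which 74.9% lay in HT H3K27me3 and 56.8% in SUDHL6 H3K27me3. The parts of the shared islands with EZH2 of HT alone came to 454 kb, of which 45.5% lay in HT H3K27me3 and 25.7% in SUDHL6 H3K27me3. The parts with EZH2 of SUDHL6 alone came to 681 kb, of which 44.1% lay in HT H3K27me3 and 53.7% in SUDHL6 H3K27me3. In SUDHL6 the common bases and the SUDHL6 margins thus differed by few percentage points. For comparison, separate islands of HT alone (9333 kb) had 31.9% in HT H3K27me3, and those of SUDHL6 alone (6934 kb) had 55.4% in SUDHL6 H3K27me3. Margins mostly lie nearer the edges of islands, and position within the island was not separated from binding in both lines. In islands of HT alone, HT H3K27me3 held 37.9% of centres and 27.3% and 29.0% of positions 1.5 kb before and after.

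Around the centres of the HT islands H3K27me3 fell off quickly in HT and more slowly in SUDHL6. The centres of the SUDHL6 partners lay a median of 1050 bp away, and shared islands were not profiled around those. At the centre of a shared island 79.9% of positions lay in HT H3K27me3, and 26.3% and 21.8% did so at 5 kb before and after it. In SUDHL6 the values were 54.0% at the centre and 28.0% and 27.3% at 5 kb. At 15 kb to either side, 9% and 13.1% lay in HT H3K27me3 and 15.9% and 18.7% in SUDHL6 H3K27me3. At centres of islands of HT alone, 37.9% of positions lay in HT H3K27me3 and 7.93% in SUDHL6 H3K27me3.

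**Figure D3:**
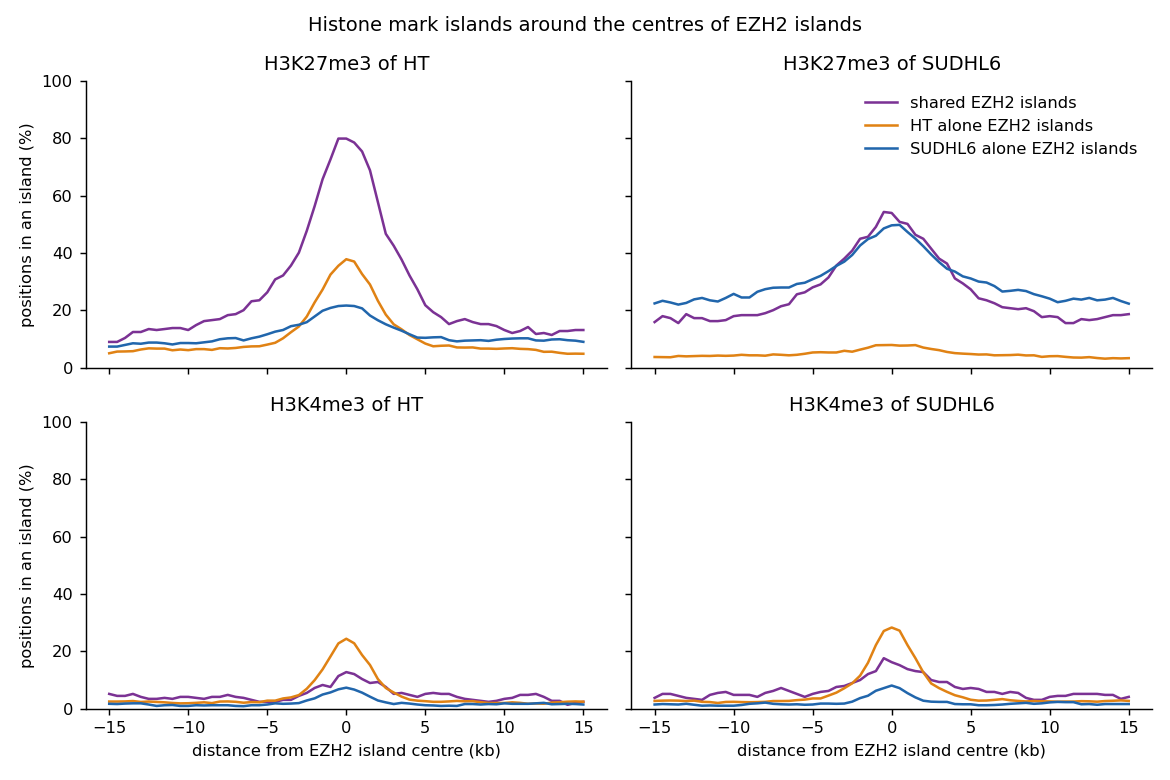
Share of positions in an H3K27me3 island (top) or H3K4me3 island (bottom) of HT (left) and SUDHL6 (right), by distance from the centre of the EZH2 island (horizontal axis, kb). Lines are shared islands, centred on the HT island, islands of HT alone and, centred on the SUDHL6 island, islands of SUDHL6 alone. H3K27me3 of HT peaks at 79.9% over shared islands, and H3K27me3 of SUDHL6 over shared islands (54.0%) and over those of SUDHL6 alone (49.7%) peaks at much the same level.

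H3K4me3 was less frequent at shared islands than at islands of HT alone and more frequent than at islands of SUDHL6 alone. It was met in HT by 69 of 289 shared islands (23.9%, 19.1 to 29.2%), against 33.9% of all HT EZH2 islands, and in SUDHL6 by 83 (28.7%, 23.6 to 34.3%), against 39.8%. These shares depend on the overlap asked for: H3K4me3 covered at least 50% of the width of 9.34% of shared islands in HT and 12.5% in SUDHL6, against 18.98% and 21.7% of all HT EZH2 islands. With each list reduced to its upper 50% by score, H3K4me3 was met by 12.2% of 156 shared islands in HT. H3K4me3 was present in both lines at 50 shared islands (17.3%, 13.1 to 22.2%), against 28.7% of the whole HT list. It was present in HT alone at 19 (6.57%), against 5.22%, in SUDHL6 alone at 33 (11.4%), against 11%, and in neither line at 187 (64.7%), against 55%. H3K4me3 in both lines was met by 30.2% (28.3 to 32.1%) of islands of HT alone and 10.0% (8.38 to 11.8%) of islands of SUDHL6 alone. Where met at a shared island, H3K4me3 covered a median of 41.4% of the EZH2 island in HT and 44.1% in SUDHL6. The H3K4me3 islands met in HT had a median score percentile of 45.2 in their list at shared islands and 63.8 at islands of HT alone, and those met in SUDHL6 61.5 and 69.0. By width, H3K4me3 in both lines was met by 0 of 16 shared islands under 2 kb (upper bound 20.6%), 13.7% from 2 to 4 kb, 17.4% from 4 to 8 kb and 35.3% (19.8 to 53.5%) at 8 kb or wider. Islands of HT alone differed in the order only under 2 kb, where the share was 35.3% (29.0 to 41.9%). From 2 kb upwards their share rose with width as well. It was 26.97% from 2 to 4 kb, 31.65% from 4 to 8 kb and 40.2% (31.6 to 49.2%) at 8 kb or wider.

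The most common state of a shared island was H3K27me3 in both lines with no H3K4me3 in either, at 150 of 289 (51.9%, 46.0 to 57.8%), against 14.1% of all HT EZH2 islands. That state made up 9.15% (7.98 to 10.4%) of the islands of HT alone and 26.5% (24.0 to 29.1%) of those of SUDHL6 alone. Next came H3K27me3 in HT alone with no H3K4me3, at 31 shared islands (10.7%), against 19.4% of the whole list. None of the 4 histone mark lists was met by 2 shared islands (0.692%, 0.0839 to 2.48%), against 20.4% of the whole list, by 22.9% of the islands of HT alone and by 20.6% of those of SUDHL6 alone. The 2 were a 1.05 kb island on chromosome 4 from 47924851 to 47925900 and a 3 kb island on chromosome 12 from 14516401 to 14519400, and they are named here because they were so few.

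H3K4me3 was more frequent where H3K27me3 of the same line was missing, at shared islands and in the whole HT list alike. H3K4me3 of HT was met by 31 of the 40 shared islands without H3K27me3 of HT (77.5%, 61.5 to 89.2%) and by 38 of the 249 with it (15.3%, 11 to 20.3%). Over all HT EZH2 islands these shares were 52.3% and 14.7%. In SUDHL6 the corresponding counts were 43 of 85 (50.6%, 39.5 to 61.6%) and 40 of 204 (19.6%, 14.4 to 25.7%), against 44.8% and 19.96% of all HT EZH2 islands. The interval of the shared islands lay above the share of the whole list in HT without H3K27me3 and held it in the other 3 cases. Counted from SUDHL6, that 1 case was 27 of 40 (67.5%, 50.9 to 81.4%). The interval holds the 52.3% of the HT list but lies above the 19.8% of all SUDHL6 EZH2 islands without H3K27me3 of HT. Of the 23 with H3K27me3 in neither line, 21 met H3K4me3 in at least 1 line and 16 met it in both (69.6%, 47.1 to 86.8%). Among islands of HT alone without H3K27me3 in either line, 45.4% (42.5 to 48.2%) met H3K4me3 in both. The longest overlaps of this class lay on chromosome 1. An island of 7.2 kb from 120833851 to 120841050 was covered to 58.3% by H3K4me3 of HT and 81.3% by H3K4me3 of SUDHL6. A 7.8 kb island from 144334951 to 144342750 was covered to 46.2% by H3K4me3 of HT and 71.2% by H3K4me3 of SUDHL6. EZH2 scores of this class were lower than in the rest, with median percentiles of 41.8 in HT and 31.3 in SUDHL6, against 82.4 in HT and 72.6 in SUDHL6 where H3K27me3 lay in both lines.

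Where H3K27me3 lay in a single line, H3K4me3 was found in the other line alone at some shared islands. Of the 62 shared islands with H3K27me3 in HT alone, 15 (24.2%, 14.2 to 36.7%) had H3K4me3 in SUDHL6 alone and 5 had it in HT alone. Of the 17 with H3K27me3 in SUDHL6 alone, 4 had H3K4me3 in HT alone and 2 in SUDHL6 alone. This was close to the rest of the HT list, in which 20.7% (17.8 to 23.8%) of islands of HT alone with H3K27me3 in HT alone had H3K4me3 in SUDHL6 alone. On chromosome 9, an island of 10.35 kb from 70395901 to 70406250 had 66.7% of its width in H3K27me3 of HT and 47.8% in H3K4me3 of SUDHL6, with no other mark called. On chromosome 16, a 4.95 kb island from 58495651 to 58500600 had 51.5% of its width in H3K4me3 of HT and 12.1% in H3K27me3 of SUDHL6.

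Both marks of the same line occurred at 38 shared islands in HT (13.1%, 9.48 to 17.6%) and at 40 in SUDHL6 (13.8%, 10.1 to 18.4%), against 7.18% and 4.03% of all HT EZH2 islands. This is the layout of a bivalent promoter, but promoters were not located. Among islands with H3K27me3 of HT, 15.3% of shared islands and 14.7% of the HT list met H3K4me3 of HT. For the marks of SUDHL6 these shares were 19.6% and 19.96%. Counted from SUDHL6, they were 18.3% (13.3 to 24.2%) of shared islands and 6.07% (4.49 to 7.98%) of islands of SUDHL6 alone. Islands of HT alone had both marks in HT at 6.40% (5.42 to 7.50%), and islands of SUDHL6 alone had both in SUDHL6 at 3.89% (2.87 to 5.14%). The marks covered some of the same bases at 31 of the 38 islands in HT and at 28 of the 40 in SUDHL6, and lay side by side at the other 7 and 12. All 4 histone mark lists were met by 16 shared islands (5.54%, 3.20 to 8.84%), against 1.63% of all HT EZH2 islands. Among islands with H3K27me3 in both lines, 8.56% of shared islands and 9.19% of the HT list met H3K4me3 in both. Counted from SUDHL6, these shares were 6.77% (3.65 to 11.3%) of shared islands and 3.17% (1.59 to 5.60%) of islands of SUDHL6 alone. One of the 16 shared islands in all 4 lists was an island of 14.85 kb on chromosome 17 from 8018701 to 8033550. It had 68.7% of its width in H3K27me3 and 29.3% in H3K4me3 of HT, and 32.3% in H3K27me3 and 16.2% in H3K4me3 of SUDHL6. Bivalent nucleosomes and marks on different alleles or in different cells cannot be told apart with separate ChIP libraries.

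In size, the same island was often called differently in the 2 lines. The shared islands had a median width of 4650 bp in HT (middle 50% of values 3150 to 6150 bp), and their SUDHL6 partners, taking the one with the highest score, 5250 bp (3600 to 8400 bp). The HT island was wider in 119 cases, the SUDHL6 partner in 165, and 5 had the same width. The median log2 ratio of the widths, HT over SUDHL6, was -0.22, and the middle 50% of ratios ran from -0.90 to 0.42. Over the 289 islands the widths had a Spearman rho of 0.20, a description of islands that share their libraries. A width of 10 kb or more was reached by 27 islands in HT, by 44 partners in SUDHL6 and by both in 10 cases.

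The overlap was substantial in most cases. Its median was 3300 bp, which was 83.3% of the HT island and 69.2% of the SUDHL6 partner. The HT island lay wholly inside SUDHL6 EZH2 in 97 cases (33.6%), and the partner lay wholly inside the HT island in 68 (23.5%). In 168 cases (58.1%) the overlap was at least 50% of both islands. The centres lay a median of 1050 bp apart. A single SUDHL6 partner was found for 280 islands, and 2 partners for 9. No island had the same start and end in both lines, although 11 had the same start and 7 the same end.

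By score most shared islands lay in the upper 50% of each EZH2 list, but their ranks in the 2 lists went together only weakly. Their median percentile was 76.7 in the HT list (middle 50% of values 53.5 to 91.6) and 64.3 in the SUDHL6 list (39.0 to 83.1). The upper 50% of both lists held 156 of them, the upper 50% of HT and lower 50% of SUDHL6 held 70, the reverse held 29, and the lower 50% of both held 34. Over the 289 islands the ranks had a Spearman rho of 0.31, and by score per kb 0.22. From the lowest to the highest 25% by score, 4%, 6.01%, 11.7% and 24.4% of the HT list were shared, and 12.9%, 17%, 20.3% and 27.9% of the SUDHL6 list. Of the 10 highest scores 6 were shared in HT and 2 in SUDHL6, of the 50 highest 18 and 11, and of the 100 highest 36 and 29. In both lines most of the 100 strongest EZH2 islands thus had no overlap with EZH2 of the other line.

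**Figure D4:**
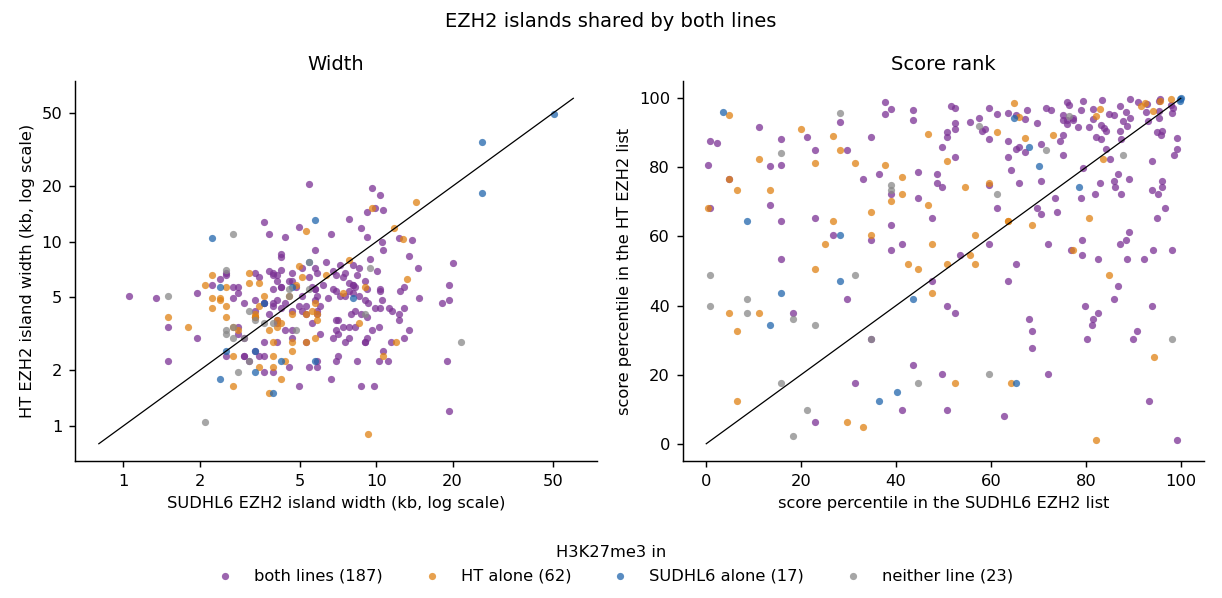
Each point is 1 of the 289 shared islands, with its value in HT on the vertical axis and that of its SUDHL6 partner on the horizontal axis, coloured by the lines in which it met H3K27me3. Left, width in kb on log scales, and right, score percentile within the EZH2 list of each line, with the diagonal marking equal values. Widths scatter about the diagonal with a rho of 0.20, and many of the points in the right panel lie in the upper right, where 156 islands are in the upper 50% of both lists.

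H3K4me3 was frequent at the few shared islands with the highest scores but did not increase with score over the rest. From the lowest to the highest 25% by HT score, 41.7%, 33.3%, 27.03% and 38.8% of shared islands met H3K4me3 in at least 1 line, and by SUDHL6 score 44%, 33.9%, 29.3% and 35.2%. Of the first 10 by sum of score ranks, 9 met H3K4me3 in at least 1 line and 7 were covered to 50% or more by H3K4me3 of SUDHL6. Over all 289 these counts were 102 and 36. H3K27me3 lay in both lines at 5 of these 10 and at 187 of all 289. Of the first 20, 16 met H3K4me3 in at least 1 line and 12 had H3K27me3 in both. At 8 kb or wider, H3K4me3 was in neither line at 47.1% of shared islands and 35.4% of islands of HT alone. Over all widths these shares were 64.7% and 53.8%. In islands of SUDHL6 alone they were 86.2% at 8 kb or wider and 83.2% over all widths. Top-scoring islands of 1 line alone were not counted in this way, and whether the H3K4me3 goes with score or with width was not tested.

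The first by both overlap and score was an island on chromosome 19, of rank 1 in both lists. In HT it ran from 50594101 to 50643600 (49.5 kb), and its SUDHL6 partner ran from 50593951 to 50644200 (50.25 kb). Its score was 945 in HT and 1111 in SUDHL6. No histone mark island of HT was met, whereas H3K27me3 of SUDHL6 covered 98.8% and H3K4me3 of SUDHL6 79.4% of the HT island. Elsewhere on the same chromosome, a SUDHL6 EZH2 island of 26.1 kb from 48408751 to 48434850, of rank 4, spanned parts of 2 HT islands. These lay from 48408301 to 48426600 (18.3 kb, rank 17) and from 48427351 to 48462150 (34.8 kb, rank 2). Neither had H3K27me3 in HT. H3K4me3 of HT covered 100% of the first and 52.2% of the second, and H3K27me3 of SUDHL6 covered 58.2% of the first and 50% of the second. These 3 islands had the longest overlaps of the class with H3K27me3 in SUDHL6 alone. The input samples were not used. Whether input reads were also enriched at these islands, or at the other islands named by rank, was not tested.

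On chromosome 2 an island of 16.35 kb from 91666201 to 91682550 had rank 4 in HT, and its SUDHL6 partner from 91666051 to 91680450 had rank 32. It had 75.2% of its width in H3K27me3 of HT and none in H3K27me3 of SUDHL6, and H3K4me3 covered 17.4% in HT and 100% in SUDHL6. A second island of this chromosome, from 90444601 to 90459750 (15.15 kb), had rank 5 in HT, with a SUDHL6 partner of rank 65. H3K27me3 covered 88.1% of it in HT and 59.4% in SUDHL6, and H3K4me3 covered 12.9% in HT and 59.4% in SUDHL6. On chromosome 1, from 148848151 to 148863300 (15.15 kb, rank 21 in HT and 67 in SUDHL6), H3K27me3 of HT covered 38.6%, and H3K4me3 covered 26.7% in HT and 100% in SUDHL6.

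Other wide shared islands had H3K27me3 in both lines, with or without H3K4me3. The longest overlap with the mark in both lines lay on chromosome 17 from 37750951 to 37764300 (13.35 kb), where H3K27me3 covered 93.3% in HT and 62.9% in SUDHL6 and H3K4me3 was not met. It ranked 50 in HT, and the stronger of its 2 SUDHL6 partners ranked 353.5, a mean of tied ranks. Nearer the end of that chromosome, from 77769151 to 77787000 (17.85 kb, rank 7 in HT and 160 in SUDHL6), H3K27me3 covered 80.7% in HT and 54.6% in SUDHL6, and H3K4me3 of SUDHL6 covered 7.56%. On chromosome 10, from 73831201 to 73850850 (19.65 kb, rank 10 in HT), H3K27me3 covered 63.4% in HT and 12.2% in SUDHL6. On chromosome 6, an island of 7.65 kb from 3225901 to 3233550 lay inside a SUDHL6 EZH2 island of 20.1 kb. H3K27me3 covered 88.2% of it in HT and 100% in SUDHL6, and H3K4me3 covered 56.9% in SUDHL6.

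At the limit of the rule, 3 islands overlapped by 1 window of 150 bp. They lay on chromosome 19 from 18546751 to 18548850, on chromosome 16 from 87418501 to 87421800 and on chromosome 1 from 6480001 to 6483000. H3K27me3 was found in both lines at the islands of chromosomes 19 and 1 and in neither at that of chromosome 16. Just outside it, the nearest HT islands stopped 450 bp short of SUDHL6 EZH2 on chromosome 16 from 88699501 to 88703250 and on chromosome 17 from 1105351 to 1111650, and 600 bp short on chromosome 1 from 156861901 to 156864600. In all, 44 islands of HT alone lay within 5 kb of SUDHL6 EZH2, and 17 of them (38.6%) had H3K27me3 in both lines.

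Shared islands lay near chromosome ends more often than islands of HT alone and less often than islands of SUDHL6 alone. The outer 10 Mb held 74 of 289 shared islands (25.6%, 20.7 to 31.1%), against 16.7% of all HT EZH2 islands and 15.3% of the length of the autosomes. Islands of HT alone lay there at 15.5% and islands of SUDHL6 alone at 42.4%. H3K27me3 in both lines was met by 56 of the 74 shared islands near the ends (75.7%, 64.3 to 84.9%) and by 131 of 215 inside the chromosomes (60.9%, 54.1 to 67.5%). The direction was the same in islands of HT alone, with 16.6% near the ends and 10.8% inside, and in islands of SUDHL6 alone, with 31.2% and 26.9%. H3K27me3 in HT alone was met by 7 of the 74 (9.46%, 3.89 to 18.5%) near the ends and by 55 of the 215 (25.6%, 19.9 to 32.0%) inside.

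By chromosome, 17 held the most shared islands, with 30 (16.5% of its HT EZH2 islands), followed by chromosome 1 with 29 (9.70%), chromosome 6 with 22 (12.8%) and chromosome 7 with 22 (18.3%). The number of shared islands went with the number of EZH2 islands over the 22 autosomes, with a Spearman rho of 0.78 for HT and 0.84 for SUDHL6, as a description. Chromosome 13 held none of its 70 HT EZH2 islands, which allows a share of up to 5.13% by the upper bound of the exact interval, and SUDHL6 had 7 EZH2 islands there. Per 100 Mb, chromosomes 17 and 19 were the densest, with 37.0 and 32.1 shared islands. On chromosome 17, 24 of the 30 had H3K27me3 in both lines, and on chromosome 1 12 of the 29 did. The share of HT EZH2 islands that were shared ran up to 19.1% (9.15 to 33.3%) on chromosome 22 and 18.6% (11.6 to 27.5%) on chromosome 19. It was 2.94% (0.358 to 10.2%) on chromosome 4 and 3.50% (1.15 to 7.97%) on chromosome 5.

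**Figure D5:**
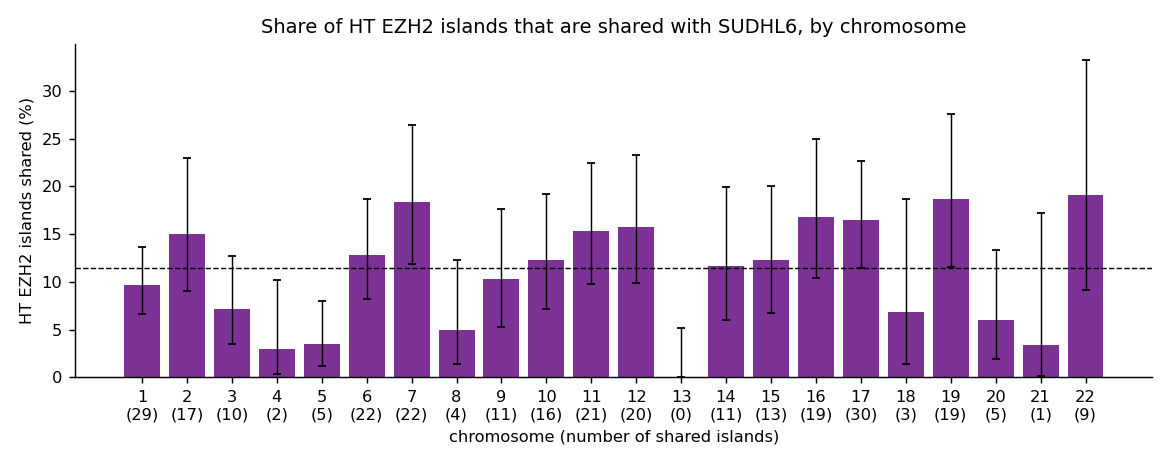
Share of HT EZH2 islands that overlapped SUDHL6 EZH2 (vertical axis, %) on each autosome, with the number of shared islands in brackets. Bars are shares with exact 95% intervals for counting error, and the dashed line is the 11.5% of all autosomes. Chromosome 13 has none, and chromosomes 4 and 5 lie below the line with their whole interval, as 7 and 19 lie above it.

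Genes are not named for these islands, since only an annotation of another genome build was at hand, and no sequence is printed for the same reason. Positions are on hg19 and counted from 1.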

How the data were processed

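ChIP-seq of EZH2, H3K27me3 and H3K4me3 in HT and SUDHL6 was used as 6 deposited lists of islands, 1 per library. The submitters' processing notes name SICER and hg19. Per the deposited file names, the window was 150 bp, the gap 450 bp and the FDR 1E-7, and the H3K27me3 names carry another normalization tag than the rest, so levels were not compared between antibodies. Aligner, read filters, control and depth: not given in the sources used here. Each island has a score, the authors' deposited value. What it counts is not given, so it served only to rank islands within a list. Overlap was at least 1 bp and was checked on simulated islands. Medians, exact binomial intervals and covered lengths were computed with numpy 2.4.6 and scipy 1.17.1 under Python 3.11.15, and figures drawn with matplotlib 3.10.9. Chromosome lengths of hg19 came with the installed GenomeInfoDb package. Regions were named by length of overlap, by sum of score ranks and by the leading islands of each histone mark class. The text gives most of these, and runs of neighbouring islands were picked with their values known. The shared islands and all lists were chosen with earlier results of these data known. Alternatives were another overlap, score, width, joining, counting side, list size, chromosome 19 left out and, added after the data were seen, mark lists of equal number, islands away from chromosome ends and islands without all marks. Planned gene list counts were not run, for want of hg19 gene positions.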

Additional observations from a re-analysis of the deposited data

How the results depend on the processing

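Of 111 values under 11 alternatives, 94 stayed within the 95% interval of the main value (or, for the number of shared islands, within 1.5 times) and 17 moved. No result rested on a test. Where at least 50% of an island had to be overlapped, both for EZH2 sharing and for the marks, 238 islands were shared, and H3K27me3 was met at 81.9% in HT, 56.3% in SUDHL6, 52.9% in both and 14.7% in neither, H3K4me3 at 9.24% in HT and 12.6% in SUDHL6 (9.34% and 12.5% where the 289 islands were kept and the marks alone had to cover 50%), and the median SUDHL6 percentile was 69.2. With each list reduced to the upper 50% by score, which also leaves fewer islands to be met, 156 islands were shared. H3K27me3 was then met at 90.4% in HT and 71.2% in both, H3K4me3 at 12.2% in HT and 21.2% in SUDHL6, median widths were 5550 bp in HT and 7275 bp in SUDHL6, and the median SUDHL6 percentile within the shortened list was 57.9. With 1500 EZH2 islands in each list, which leaves out the lowest HT scores, 5% had H3K27me3 in neither line, the median HT width was 5100 bp and the median HT percentile 72.3. Counted from SUDHL6, without chromosome 19, from 1 kb upwards and with islands within 5 kb joined, no value moved, and joined islands were not ranked by score. With H3K27me3 lists of 13117 islands each, an alternative chosen after seeing the data, the mark was met at 85.5% in HT and 70.6% in SUDHL6. Without the 16 islands that meet all 4 histone mark lists, also chosen after seeing the data, H3K27me3 in both lines was met at 62.6%. No paired analysis was possible because each line and antibody has 1 library. Depth and the spread between libraries of the same line are unknown, so differences between the lines and differences in calling cannot be told apart.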

Other observations

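Some shared islands lay close together. With gaps of up to 100 kb, 58 of the 289 islands fell into 26 runs of 2 or more, and the longest runs held 4. On chromosome 16, from 88460251 to 88549050 (88.8 kb), all 4 had H3K27me3 in both lines and none had H3K4me3. On chromosome 14, from 105941251 to 105996450 (55.2 kb), all 4 had H3K27me3 in both lines and 1 had H3K4me3. On chromosome 17, from 37750951 to 37897050 (146 kb), 3 had H3K27me3 in both lines and none had H3K4me3. The run of chromosome 7 from 64972051 to 65115600 (144 kb) was of another kind. All 3 of its islands had H3K27me3 in HT alone and H3K4me3 in SUDHL6 alone. H3K27me3 of HT covered 59.5%, 88.2% and 50% of them, and H3K4me3 of SUDHL6 76.2%, 100% and 100%. With gaps of up to 20 kb, 30 islands fell into 14 runs. Islands of a run share their region and are not independent.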
